A study of Mus musculus with 8 samples.

Results

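The genes of sterol and fatty acid synthesis described here are 30 mouse genes, taken by their symbols from the 36806 gene identifiers of the deposited expression tables. They were followed in poly(A) RNA-seq of bone marrow-derived macrophages from C57BL/6 mice, grown for 7 days in DMEM with serum and L929-conditioned medium, in which those fibroblasts supply the growth factor CSF1. For 4 h, cultures received 1 of 7 agents. IFNg (interferon gamma) was given at 100 ng/ml. IL4 (interleukin 4), TNFa (tumour necrosis factor) and IL1b (interleukin 1 beta) were each given at 10 ng/ml, and TGFb1 (transforming growth factor beta) and the lipopeptide MALP2, which signals through Tlr2 and Tlr6, at 1 ng/ml. CpG, a DNA ligand of Tlr9, was given at 100 nM. The culture they are set against was left untreated. With 1 library in each of the 8 groups there is no replicate check, no test was made, and the values describe these libraries. All 7 comparisons share the untreated library, so a value that is high or low in it moves all 7 together.

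Of the 30 genes, 29 had an identifier in the tables. No identifier matched Hmgcs1, which makes the precursor of mevalonate. Fdft1, squalene synthase, had a status other than OK in every table; it was listed at 0 in 7 libraries, and its assembled locus, chr14:63741301-63796630 of mm9, is the one given for the protease gene Ctsb too, and it was left out. That left 28 genes, of which Acaca was measured in 5 comparisons because its status was not OK in the IL4 and IL1b tables, and Elovl6 in 4 because it reached 1 FPKM in neither library of the others. FPKM is the number of fragments per unit of transcript length, scaled to the fragments mapped in the library. Changes are log2 of (stimulated FPKM + 1) over (untreated FPKM + 1), and a gene was counted as higher or lower where the change on this scale reached 2-fold, with an OK status in both libraries and 1 FPKM or more in one of them.

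Cholesterol is built from acetyl-CoA by way of mevalonate, farnesyl diphosphate, squalene and lanosterol. The genes of this route are known targets of the transcription factor SREBP2, which the escort protein Scap carries out of the endoplasmic reticulum when sterols are low and which the Insig proteins hold back when sterols are high. Fatty acid synthesis draws on the same acetyl-CoA, and in macrophages both routes are known to respond to lipid load and to inflammatory signals.

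The libraries differ in depth, which the tables do not give, and in markers of other cells. From the steps of the low FPKM values, 1 read in the IFNg library was worth 2.04 times the FPKM of 1 read in the untreated library, and 1 read in the other 6 was worth 1.04 to 1.44 times, so IFNg was the shallowest. The 9 macrophage markers measured summed to 5628 to 9416 FPKM in the stimulated libraries and 7740.2 FPKM in untreated cells; Lyz2 was not OK. Stromal markers, such as collagens, summed to 166 FPKM after IFNg, 79.2 to 90.1 FPKM after the other agents and 77.2 FPKM untreated, and 4 of the 9 measured were at least 2-fold higher after IFNg. Neutrophil markers summed to 422 FPKM after IFNg, 158 to 374 FPKM after the other agents and 270 FPKM in untreated cells. B cell markers summed to 39.8 to 73.8 FPKM in the stimulated libraries and 240.2 FPKM in the untreated one, with Cd79a, Ms4a1 and Pax5 at or near 0 in all 8. T and NK cell markers summed to 22.3 FPKM after IFNg, 6.20 to 10.5 FPKM after the other agents and 9.66 FPKM untreated. The IFNg sum was mostly Lck (11.2 FPKM, 0.91 untreated) and Cd4 (10.9 FPKM, 8.62 untreated). Cd3e, Cd3d, Cd8a and Ncr1 were at or near 0 in all 8 libraries. Adipocyte and hepatocyte markers summed to at most 1.07 FPKM. The part of depth and of these cells in the values of the synthesis genes was not tested, and in bulk RNA fewer cells and less RNA per cell cannot be told apart.

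Of the enzymes from isopentenyl diphosphate to the late sterols, 7 passed as higher, each after 1 to 6 of the agents other than IFNg and none after IFNg. Sqle, the rate-limiting epoxidase of squalene, and Hsd17b7, a sterol ketoreductase, were higher after all 6 of them, with log2 changes of 1.38 to 2.46 and 1.64 to 2.60. After IFNg neither passed, with changes of 0.48 and 0.47, and 12 of the 27 measured genes were lower, led by Mvd (-2.73) and Dhcr7 (-2.39). Acss2, which makes acetyl-CoA from acetate, was lower after all 7 agents. Across the 28 genes, 21 passed in at least 1 comparison, of which 9 were higher only, 11 lower only and 1, Fads2, passed in both directions. The share of all genes that passed in at least 1 of the 7 comparisons was not counted. No excess over other genes can therefore be read from the 21 genes or from the 7 enzymes above.

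Counted per agent, the genes that were lower after IFNg came to 12 of 27 (44.4%), against a background of 12.7% of all measured genes. After IL1b 7 of 27 (25.9%) were higher, against 7.29% of all genes, and after TGFb1 7 of 28 (25.0%), against 7.15%. TNFa had 5 of 28 higher (17.9%), against 8.92% of all genes. IL4 and MALP2 each had 4 of 27 higher (14.8%), against backgrounds of 9.86% and 9.53%. Those 3 shares exceed their backgrounds by fewer genes than the IFNg, IL1b and TGFb1 shares do.

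The remaining counts were under the background. The gene higher after IFNg was 1 of 27, against 10.7% of all genes, and CpG had 2 of 27 higher, against 9.43%. Genes lower numbered 2 of 27 after IL4 (background 11.9%), 2 of 28 after TNFa (10.4%), 1 of 28 after TGFb1 (9.15%) and 1 of 27 after IL1b (8.57%). MALP2 and CpG had 3 of 27 lower each, against 11.7% and 11.2%. Centred on the change of the median gene, CpG had 4 of 27 higher (14.8%), against 11.0% of all genes, and 3 of 27 lower (11.1%), against 9.25%, so that both shares then lay a little above the background. The authors' deposited tables also called, among the genes at least 2-fold apart, 10 of 27 after IFNg (15.9% of all genes), 3 of 27 after IL4 (14.9%), 6 of 28 after TNFa (13.6%) and 8 of 28 after TGFb1 (11.7%). In the same deposited tables they called 7 of 27 after IL1b (11.9%), 5 of 27 after MALP2 (14.3%) and 4 of 27 after CpG (14.3%). By the call, the shares after IL4 (11.1%) and CpG (14.8%) were thus at or near the background.

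**Figure D1:**
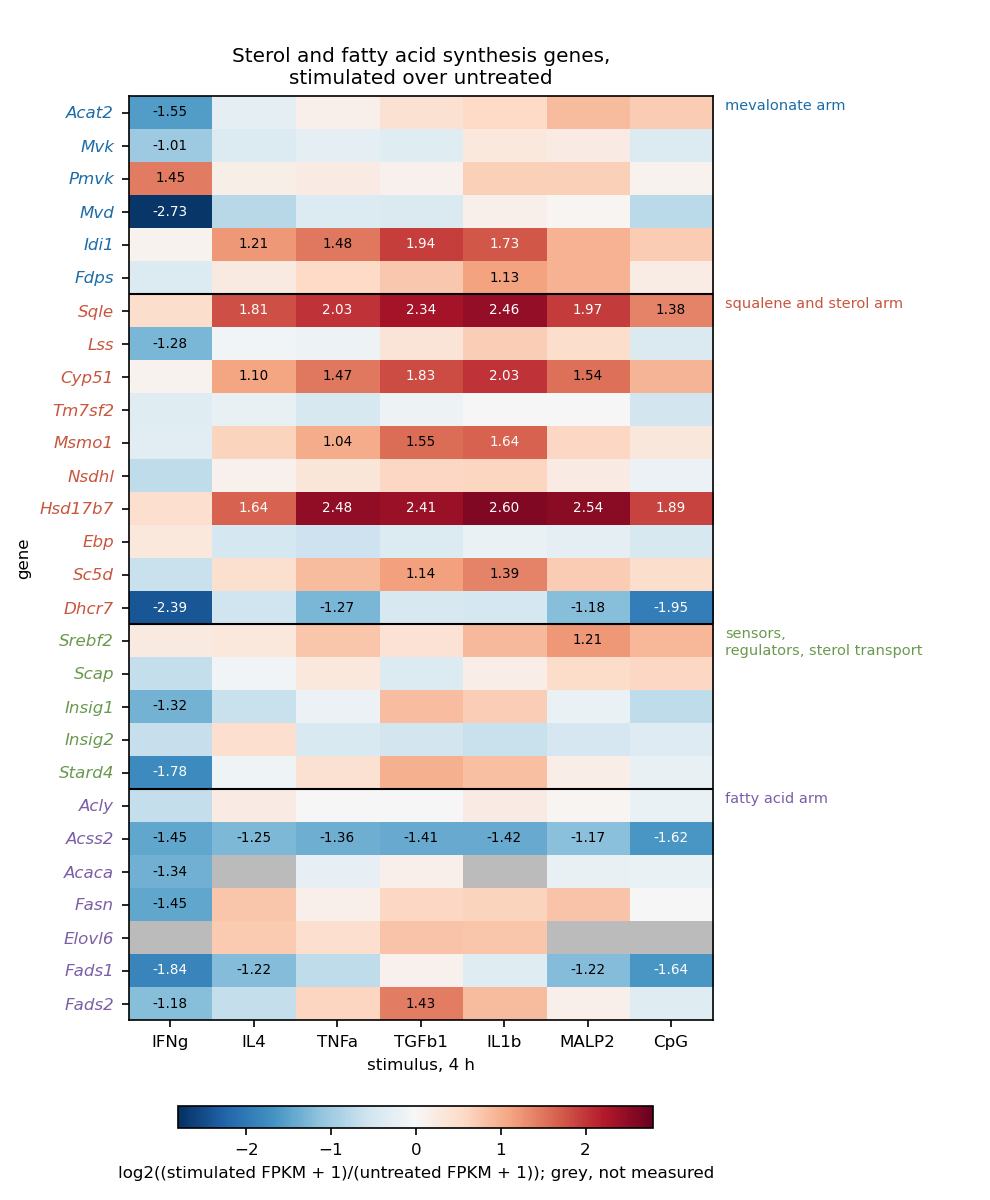
Log2 change of 28 synthesis genes (rows, grouped by arm of the pathway) after each of 7 agents (columns), as log2 of (stimulated FPKM + 1) over (untreated FPKM + 1) with 1 library per group; a printed value marks a change of at least 2-fold, and grey a gene not measured in that comparison. The IFNg column holds 12 lower genes and 1 higher gene, while Sqle and Hsd17b7 are higher in the other 6 columns and Acss2 is lower in all 7.

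The median change of the synthesis genes was -0.68 after IFNg, 0.11 after IL4, 0.18 after TNFa, 0.42 after TGFb1, 0.67 after IL1b, 0.24 after MALP2 and -0.18 after CpG, where the median of all measured genes lay between -0.12 and -0.08 in the 7 comparisons. The genes spread widely within 1 agent: after TNFa they ran from -1.36 for Acss2 to 2.48 for Hsd17b7.

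**Figure D2:**
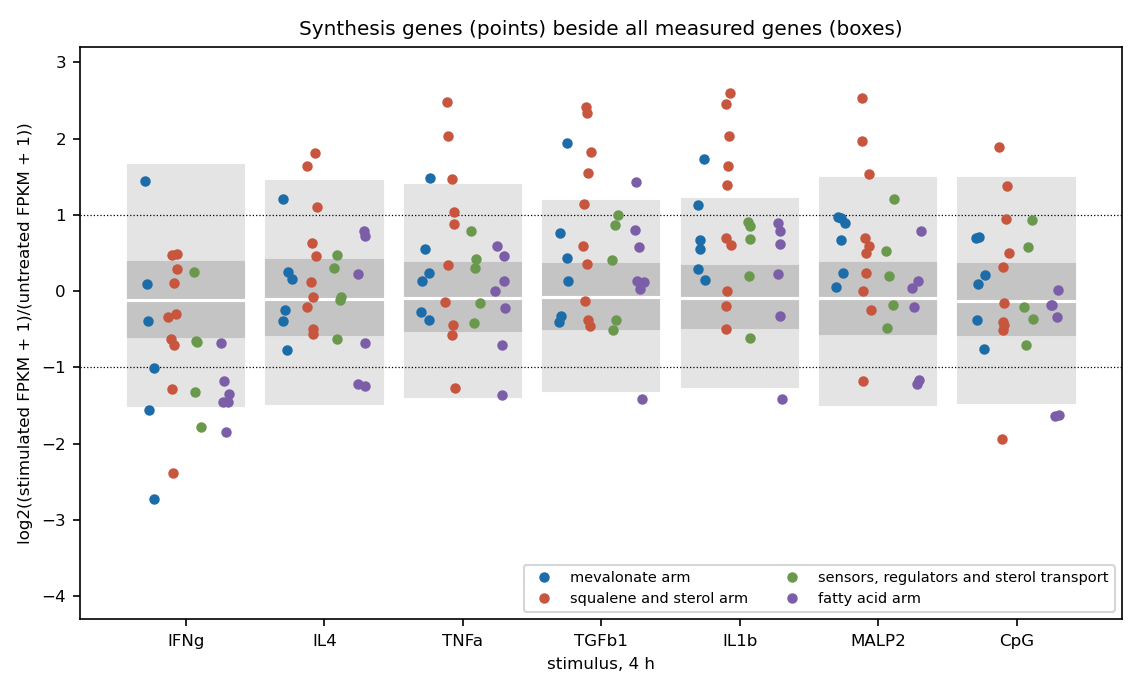
Log2 change over the untreated library (y axis) of the synthesis genes (points, coloured by arm) for each agent (x axis); the grey boxes span the middle 90% and 50% of all measured genes, the white line is their median, and dotted lines mark 2-fold. The median of the points is 0.67 after IL1b and -0.68 after IFNg, and the highest points after 6 agents are Sqle or Hsd17b7 of the squalene and sterol arm.

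The promoters of 5 of these genes are printed because they stand for the patterns described: Cyp51 and Hsd17b7 for the genes higher after most agents, Mvd and Dhcr7 for those lowest after IFNg, and Acss2 for the gene lower after all 7. Each is RefSeq sequence of GRCm38.p6, from 250 bases before to 50 after the gene start, 5′ to 3′ on the gene's own strand. Cyp51 is at chr5:4104648-4104947, Hsd17b7 at chr1:169969156-169969455 and Mvd at chr8:122443373-122443672, all on the minus strand, and Dhcr7 at chr7:143829964-143830263 and Acss2 at chr2:155517793-155518092, both on the plus strand. For a gene with several windows, the one with the most matches is shown. Capitals mark matches on either strand to the CCAAT box (CCAAT, or ATTGG on the other strand), the GC box (GGGCGG or CCGCCC), the E-box CACGTG and the sterol element TCACNCCAC; no matches overlap in these 5 windows, and none of them holds the sterol element in this spelling.
Cyp51: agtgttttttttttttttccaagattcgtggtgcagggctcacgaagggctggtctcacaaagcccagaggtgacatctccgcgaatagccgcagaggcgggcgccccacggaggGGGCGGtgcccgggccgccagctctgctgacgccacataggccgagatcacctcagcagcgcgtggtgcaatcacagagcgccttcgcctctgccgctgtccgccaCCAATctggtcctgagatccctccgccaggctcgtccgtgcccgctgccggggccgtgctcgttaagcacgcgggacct
Hsd17b7: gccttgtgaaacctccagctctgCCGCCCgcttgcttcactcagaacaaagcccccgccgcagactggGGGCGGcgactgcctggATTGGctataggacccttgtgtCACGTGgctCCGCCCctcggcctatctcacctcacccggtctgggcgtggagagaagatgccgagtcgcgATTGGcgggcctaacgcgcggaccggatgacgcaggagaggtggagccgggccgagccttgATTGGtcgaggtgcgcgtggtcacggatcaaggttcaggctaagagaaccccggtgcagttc
Mvd: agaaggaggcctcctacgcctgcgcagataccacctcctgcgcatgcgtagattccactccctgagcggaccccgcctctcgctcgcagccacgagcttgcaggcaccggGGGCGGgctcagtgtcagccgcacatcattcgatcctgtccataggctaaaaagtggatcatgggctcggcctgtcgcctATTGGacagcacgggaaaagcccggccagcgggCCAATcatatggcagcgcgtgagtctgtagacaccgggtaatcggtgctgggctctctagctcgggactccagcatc
Dhcr7: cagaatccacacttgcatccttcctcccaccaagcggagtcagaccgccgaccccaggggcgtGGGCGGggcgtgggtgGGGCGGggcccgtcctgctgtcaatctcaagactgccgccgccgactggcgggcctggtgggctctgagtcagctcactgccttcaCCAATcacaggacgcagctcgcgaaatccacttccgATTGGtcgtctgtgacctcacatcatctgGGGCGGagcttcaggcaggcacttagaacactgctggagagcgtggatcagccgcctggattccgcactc
Acss2: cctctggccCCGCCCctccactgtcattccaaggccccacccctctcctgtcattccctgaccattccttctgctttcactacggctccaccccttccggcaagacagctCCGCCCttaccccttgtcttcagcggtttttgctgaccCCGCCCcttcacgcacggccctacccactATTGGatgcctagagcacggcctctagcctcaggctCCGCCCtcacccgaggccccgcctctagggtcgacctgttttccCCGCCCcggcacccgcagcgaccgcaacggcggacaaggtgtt

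The RefSeq table held 31 windows for 25 of the 30 genes. A CCAAT box stood in 20 of the 31 (64.5%), against 37.4% of all 32851 windows and 37.7% of the 10575 windows of genes at 1 FPKM or more in untreated cells. A GC box stood in 24 (77.4%), against 35.7% of all windows and 63.2% of those of expressed genes. The E-box stood in 6 (19.4%), against 7.15% and 10.3%, and the sterol element, in this spelling, in 1 (3.23%), that of Hmgcs1, against 1.24% and 1.12%. All 5 printed windows, chosen as given above, hold at least 1 CCAAT box and 1 GC box. Dhcr7 has 3 windows, and its E-box stands outside the printed one. All of these are matches of letters in a short window and describe the sequences only.

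In the mevalonate arm, the largest change was a lower one. Mvd, whose decarboxylation of mevalonate diphosphate yields isopentenyl diphosphate, had 4.13 FPKM after IFNg, 19.2 after IL4, 25.3 after TNFa, 24.9 after TGFb1, 36.9 after IL1b, 34.7 after MALP2, 19.2 after CpG and 33.3 in untreated cells. The IFNg value lay below the other 7, which ran from 19.2 FPKM upwards, and the change was 6.62-fold lower than untreated; the authors' bounds were 1.10 to 6.69 FPKM after IFNg and 11.7 to 51.2 FPKM in untreated cells and did not overlap. Its assembled locus is chr8:124957495-124967322 of mm9.

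Idi1, the isomerase that turns isopentenyl into dimethylallyl diphosphate, had 2.52 FPKM after IFNg, 6.55 after IL4, 8.20 after TNFa, 11.6 after TGFb1, 9.89 after IL1b, 5.44 after MALP2, 4.37 after CpG and 2.29 in untreated cells. It passed as higher after IL4, TNFa, TGFb1 and IL1b, with log2 changes of 1.21, 1.48, 1.94 and 1.73, and stayed just under the threshold after MALP2 at 0.96. The IFNg and untreated libraries were the low pair, and the authors' deposited tables called the TNFa, TGFb1 and IL1b changes but not those after IL4 and MALP2.

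Acat2, the cytosolic thiolase that joins acetyl-CoA units at the start of the route, had 3.84 FPKM after IFNg, 11.0 after IL4, 14.7 after TNFa, 18.4 after TGFb1, 20.0 after IL1b, 25.7 after MALP2, 22.4 after CpG and 13.3 in untreated cells. IFNg alone stood below the other 7 libraries, at a log2 change of -1.55 over untreated, and MALP2 was the highest of the 8. The authors' bounds of Acat2 still overlapped slightly, at 1.15 to 6.10 FPKM after IFNg and 5.65 to 19.5 FPKM in untreated cells.

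Pmvk, phosphomevalonate kinase, ran the other way, at 70.8 FPKM after IFNg, 28.4 after IL4, 29.9 after TNFa, 27.7 after TGFb1, 40.8 after IL1b, 41.0 after MALP2, 27.2 after CpG and 25.3 in untreated cells. The IFNg library held the highest value of the 8 and the untreated library the lowest, a 2.73-fold difference that the authors' deposited table did not call, with bounds of 23.5 to 110.2 FPKM after IFNg and 8.66 to 39.1 FPKM untreated.

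Fdps, farnesyl diphosphate synthase, had 14.6 FPKM after IFNg, 23.3 after IL4, 28.9 after TNFa, 33.6 after TGFb1, 43.8 after IL1b, 38.9 after MALP2, 22.7 after CpG and 19.4 in untreated cells. It passed after IL1b alone, at 1.13, which the deposited table did not call, with MALP2 next at 0.97. Mvk, mevalonate kinase, had 7.83 FPKM after IFNg, 12.6 after IL4, 13.7 after TNFa, 13.2 after TGFb1, 20.8 after IL1b, 20.0 after MALP2, 12.8 after CpG and 16.8 in untreated cells. Its change after IFNg, -1.01, lies at the edge of the 2-fold threshold, and its other changes ran from -0.39 after IL4 to 0.29 after IL1b. The median change over the 6 measured genes of the arm was -0.70 after IFNg and 0.61 after IL1b. After IFNg 3 of 6 were lower (12.7% of all genes), and after IL1b 2 of 6 were higher (7.29%).

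The squalene and sterol arm held the largest increases. Hsd17b7, which reduces the keto group left as methyl groups are removed from the sterol ring, had 5.53 FPKM after IFNg, 13.6 after IL4, 25.2 after TNFa, 23.8 after TGFb1, 27.3 after IL1b, 26.3 after MALP2, 16.5 after CpG and 3.68 in untreated cells. The IFNg and untreated libraries were the low pair, and the other 6 libraries lay from 13.6 to 27.3 FPKM. The folds over untreated were 3.13 after IL4, 5.59 after TNFa, 5.33 after TGFb1, 6.05 after IL1b, 5.80 after MALP2 and 3.72 after CpG. The authors' bounds did not overlap in any of those 6 comparisons, and the deposited tables called all 6.

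Sqle had 28.3 FPKM after IFNg, 72.5 after IL4, 84.6 after TNFa, 105 after TGFb1, 114 after IL1b, 81.0 after MALP2, 53.7 after CpG and 20.0 in untreated cells. The stimulated libraries other than IFNg lay above the untreated one by 2.61-fold after CpG to 5.48-fold after IL1b. In the authors' deposited tables the CpG change was the one of the 6 not called. The locus of Sqle is chr15:59146631-59162747 of mm9.

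Cyp51, which removes the first methyl group of lanosterol, had 28.4 FPKM after IFNg, 57.7 after IL4, 75.0 after TNFa, 96.0 after TGFb1, 111 after IL1b, 78.4 after MALP2, 51.6 after CpG and 26.4 in untreated cells. It passed as higher after IL4 (1.10), TNFa (1.47), TGFb1 (1.83), IL1b (2.03) and MALP2 (1.54), and missed the threshold after CpG at 0.94. Of the changes that passed, the one after IL4 was not called in the authors' deposited tables. IFNg and untreated were the low pair again, with a change of 0.10 after IFNg.

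Msmo1, the oxidase that acts on the next methyl groups, had 44.9 FPKM after IFNg, 86.3 after IL4, 115 after TNFa, 165 after TGFb1, 175 after IL1b, 83.8 after MALP2, 69.4 after CpG and 55.5 in untreated cells. It was higher after TNFa (1.04), TGFb1 (1.55) and IL1b (1.64), the last of these a 3.12-fold difference with bounds of 109 to 246 FPKM after IL1b and 33.9 to 78.5 FPKM untreated. The TNFa change was not called in the authors' deposited table.

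Sc5d, a late desaturase of the sterol ring, had 11.3 FPKM after IFNg, 25.1 after IL4, 34.2 after TNFa, 41.1 after TGFb1, 48.9 after IL1b, 30.0 after MALP2, 25.9 after CpG and 18.1 in untreated cells. TGFb1 and IL1b passed, at 1.14 and 1.39, and the TNFa change of 0.88 was called in the authors' deposited table though under 2-fold.

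Dhcr7, the reductase of the last step to cholesterol, differed from the genes above, at 5.58 FPKM after IFNg, 22.4 after IL4, 13.4 after TNFa, 24.3 after TGFb1, 23.5 after IL1b, 14.2 after MALP2, 7.99 after CpG and 33.7 in untreated cells. The untreated library was the highest of the 8, and the gene passed as lower after IFNg (-2.39), TNFa (-1.27), MALP2 (-1.18) and CpG (-1.95). After IL4, TGFb1 and IL1b its changes were -0.57, -0.45 and -0.50. The bounds were 2.75 to 7.78 FPKM after IFNg and 20.6 to 43.0 FPKM untreated and did not overlap, and the deposited tables called all 4 lower changes.

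Lss, lanosterol synthase, had 10.4 FPKM after IFNg, 25.4 after IL4, 24.2 after TNFa, 34.7 after TGFb1, 43.9 after IL1b, 38.2 after MALP2, 20.0 after CpG and 26.8 in untreated cells. IFNg was the lowest library and passed at -1.28, while IL1b was the highest at a change of 0.69. Over the 10 measured genes of this arm the median change was -0.32 after IFNg, 0.28 after IL4, 0.61 after TNFa, 0.87 after TGFb1, 1.04 after IL1b, 0.54 after MALP2 and 0.08 after CpG.

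Among the regulators, Srebf2, which encodes SREBP2, had 63.1 FPKM after IFNg, 65.6 after IL4, 91.9 after TNFa, 70.8 after TGFb1, 100.0 after IL1b, 124 after MALP2, 102 after CpG and 52.9 in untreated cells. It passed after MALP2 alone, at 1.21, a change the authors' deposited table did not call, with CpG at 0.93 and IL1b at 0.91 next. Insig1, which holds the Scap complex in the endoplasmic reticulum, had 25.2 FPKM after IFNg, 41.4 after IL4, 57.7 after TNFa, 118 after TGFb1, 104 after IL1b, 56.9 after MALP2, 39.3 after CpG and 64.6 in untreated cells. Its lowest value was after IFNg, 2.50-fold under untreated and not called in the deposited table, and its highest after TGFb1, at a change of 0.86.

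Stard4, a cytosolic carrier of cholesterol between membranes, had 2.75 FPKM after IFNg, 11.0 after IL4, 16.4 after TNFa, 25.0 after TGFb1, 22.6 after IL1b, 13.9 after MALP2, 10.3 after CpG and 12.0 in untreated cells. IFNg stood apart at the low end, at a change of -1.78 with bounds of 1.25 to 3.94 FPKM after IFNg and 6.10 to 16.6 FPKM untreated, which did not overlap. TGFb1 was the highest library, and its change of 1.00 lay just under the threshold before rounding. Scap and Insig2 passed in no comparison: Scap ran from -0.67 after IFNg to 0.58 after CpG, and Insig2 from -0.65 after IFNg to 0.47 after IL4. The IL1b change of Insig2, -0.62, was called in the authors' deposited table although under 2-fold.

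Over untreated, the fatty acid arm was lower after IFNg in 5 of its 6 measured genes, against 12.7% of all genes. Over the median of the libraries of the other 6 agents, 2 of 6 were lower, against 3.49%. Fads1, a desaturase of polyunsaturated fatty acids, had 21.8 FPKM after IFNg, 34.1 after IL4, 49.3 after TNFa, 87.6 after TGFb1, 64.0 after IL1b, 34.1 after MALP2, 25.3 after CpG and 80.8 in untreated cells. The TGFb1, untreated and IL1b libraries were the high ones, and the gene passed as lower after IFNg (-1.84), IL4 (-1.22), MALP2 (-1.22) and CpG (-1.64); the authors' deposited tables called the IFNg and CpG changes.

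Fads2, the desaturase that acts before Fads1 in the same route and lies near it on chromosome 19, had 7.84 FPKM after IFNg, 11.6 after IL4, 29.4 after TNFa, 53.3 after TGFb1, 36.2 after IL1b, 21.2 after MALP2, 14.9 after CpG and 19.2 in untreated cells. It was higher after TGFb1 by 2.70-fold and lower after IFNg by 2.27-fold, the one gene to pass in both directions. The authors' deposited tables called the TGFb1 change and not the IFNg change.

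Acss2 had 2.29 FPKM after IFNg, 2.85 after IL4, 2.53 after TNFa, 2.43 after TGFb1, 2.42 after IL1b, 3.03 after MALP2, 1.94 after CpG and 8.09 in untreated cells. The 7 stimulated values lie close together and the untreated value above them all, with log2 changes of -1.62 to -1.17, all 7 called in the authors' deposited tables. Among all genes measured in the 7 comparisons 3.04% were lower in all of them, so 1 gene of 26 is near the background. The assembled locus of Acss2, chr2:155316114-155420691 of mm9, also holds Gss, glutathione synthetase. Gss had 5.92 to 12.3 FPKM in the stimulated libraries and 11.2 FPKM in untreated cells, so the value of Acss2 is uncertain.

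Fasn, which builds palmitate from malonyl-CoA, had 8.86 FPKM after IFNg, 45.5 after IL4, 28.6 after TNFa, 39.3 after TGFb1, 40.4 after IL1b, 45.7 after MALP2, 26.3 after CpG and 26.0 in untreated cells. IFNg was the low library at -1.45, and IL4 and MALP2 the high ones, at changes of 0.78 and 0.79 under the threshold. Acaca, the carboxylase that makes malonyl-CoA, was listed at 4.46 FPKM after IFNg, 10.9 after TNFa, 14.3 after TGFb1, 11.1 after MALP2, 11.3 after CpG and 13.0 in untreated cells. It passed after IFNg at -1.34 and in none of the other 4 comparisons that measured it.

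Besides Scap and Insig2, 5 measured genes passed in no comparison. Acly, which cleaves citrate to acetyl-CoA, ran from -0.68 after IFNg to 0.23 after IL1b. Elovl6, a fatty acid elongase, ran from 0.46 to 0.81 in the 4 comparisons that measured it. Of the sterol enzymes, Nsdhl, a dehydrogenase of the demethylation steps, ran from -0.70 after IFNg to 0.60 after IL1b, Ebp, a sterol isomerase, from -0.57 after TNFa to 0.29 after IFNg, and Tm7sf2, a sterol reductase, from -0.51 after CpG to 0.01 after IL1b. The locus assembled for Tm7sf2 also holds Zfpl1 and Vps51, with 26.0 to 38.7 FPKM against 5.22 to 7.92 FPKM for Tm7sf2 itself over the stimulated libraries, so its value is uncertain.

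To set the libraries against each other without the untreated one as reference, the IFNg library was read over the median of the 6 libraries of the other agents, with all tables on 1 scale. This library was also the shallowest and the highest in stromal markers, as given above. Lower in it were 15 of 27 genes, against 3.49% of all genes, and 1 was higher, against 7.74%. The lower genes were led by Mvd (-2.35), Stard4 (-2.11), Acat2 (-2.06), Fasn (-2.05) and Hsd17b7 (-1.97), and included Sqle (-1.51), Cyp51 (-1.40) and Idi1 (-1.25), which did not differ by 2-fold between IFNg and untreated. The higher gene was Pmvk (1.25), and Nsdhl, at -1.00, fell just short of the threshold before rounding. Acss2 was at -0.08, so its distance from untreated is shared by the stimulated libraries. The median over the 27 genes was -1.15. In the squalene and sterol arm 7 of 10 genes were lower, while over untreated 2 of 10 were, against 12.7% of all genes. In the fatty acid arm 2 of 6 were lower, while over untreated 5 of 6 were. Elovl6 was measured there by this reference only, and Acaca over untreated only. Of the 12 genes lower over untreated, 8 were among these 15, and Mvk, Acss2, Fads1 and Acaca, the last not measured in all of the libraries needed, were not. Both readings use the same IFNg library, so part of this overlap is built in, and the overlap over all genes was not counted.

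**Figure D3:**
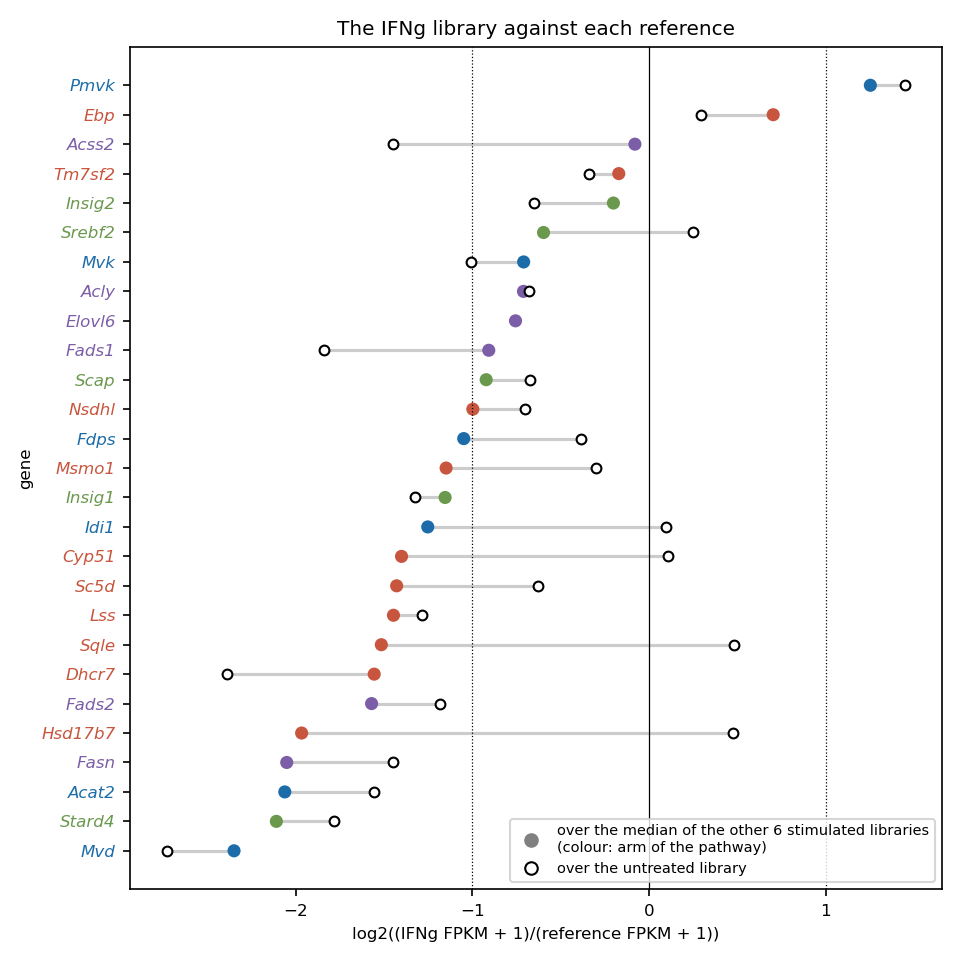
Log2 of IFNg FPKM + 1 over reference FPKM + 1 (x axis) for 27 synthesis genes (y axis), over the median of the 6 libraries of other agents (filled points, coloured by arm) and against the untreated library (open points); dotted lines mark 2-fold. Against the other 6 libraries 15 genes lie at or beyond 2-fold lower and Pmvk 2-fold higher, while Sqle, Hsd17b7, Cyp51 and Idi1 lie between 0.09 and 0.48 against the untreated library, and Elovl6 has no open point because it was under 1 FPKM in both.

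The ranks of the 8 libraries come from the same values as the changes above and are no further check on them. IFNg held the lowest value of 18 of the 27 genes that were OK in all libraries (66.7%), against 24.7% of 13467 genes. IL1b held the highest value of 12 (44.4%), against 3.16% of all genes, and TGFb1 of 6 (22.2%), against 11.7%. The untreated library was lowest for 6 genes (22.2%), near the 19.0% of all genes, and highest for 2 (7.41%), Dhcr7 and Acss2, against 29.0%. The genes higher after all agents but IFNg, Sqle and Hsd17b7, were 2 of 26, against 2.27% of all genes.

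Genes around the pathway were read by the same rule. Of 13 other isoprenoid enzymes, none was lower after any agent, against 8.57% to 12.7% of all genes. At that share so short a list would hold few lower genes. Higher were 2 of 13 after IFNg (10.7% of all genes), 1 each after IL4 (9.86%), TNFa (8.92%) and MALP2 (9.53%), and none after TGFb1, IL1b or CpG. Pdss1, which builds the ubiquinone side chain, was higher after IFNg (1.74), IL4 (1.55), TNFa (1.12) and MALP2 (1.06). Its untreated level, 0.93 FPKM, lay under the floor of 1 FPKM. Coq2 was the other gene higher after IFNg (1.22). Of 11 genes of SREBP processing and sterol control in the endoplasmic reticulum, none was lower, against the same shares and with the same limit. Rnf145, a ubiquitin ligase there, was higher after IFNg (1.58), MALP2 (1.11) and CpG (1.10).

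Genes of sterol uptake, trafficking and storage were lower more than higher: of 13 measured, 6 were lower after IFNg (12.7% of all genes), 6 after IL4 (11.9%), 4 after TNFa (10.4%), 5 after TGFb1 (9.15%), 3 after IL1b (8.57%), 5 after MALP2 (11.7%) and 5 after CpG (11.2%). Higher were 2 after MALP2 (9.53% of all genes), 2 after CpG (9.43%) and none after the other 5 agents. Their median change was -0.97 after IFNg and -0.94 after IL4, and lay between -0.74 and -0.47 after the other 5 agents, where all genes lay between -0.12 and -0.08. Nceh1, a hydrolase of stored cholesteryl esters, was lower after all 7 agents, from -3.44 after MALP2 to -1.12 after TGFb1, and Lipa, the lysosomal acid lipase, from -2.01 after MALP2 to -1.27 after IL1b. Stard5, a sterol-binding protein, was lower after IFNg (-1.22), IL4 (-2.41) and TGFb1 (-1.86) and higher after MALP2 (1.29) and CpG (1.31).

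Of the oxysterol and efflux genes, 9 were measured. Per agent, 1 or 2 of the 9 were higher (7.15% to 10.7% of all genes) and 2 to 4 lower (8.57% to 12.7%). Ch25h, whose enzyme hydroxylates cholesterol, stood at 34.1 to 532 FPKM in the stimulated libraries and 3.24 FPKM in untreated cells, with changes of 3.06 after TGFb1 to 6.96 after IFNg. Abcg1, a cholesterol exporter, was lower after all 7, from -4.22 after MALP2 to -1.01 after IL4. Abca1 was lower after IFNg (-1.60) and IL4 (-3.02) and ran from -0.81 after IL1b to 0.59 after CpG for the other agents. Of 24 other fatty acid and lipid enzymes, 20 were measured after IFNg, of which 3 were higher (10.7% of all genes) and 5 lower (12.7%). After CpG 5 of 21 were higher (9.43% of all genes) and 2 lower (11.2%). After MALP2 4 of 21 were higher (9.53%) and 2 lower (11.7%). IL4 had 3 of 21 higher (9.86%) and 2 lower (11.9%), and TNFa 3 of 21 higher (8.92%) and 2 lower (10.4%). TGFb1 had 2 of 20 higher (7.15%) and 2 lower (9.15%), and IL1b 2 of 20 higher (7.29%) and 2 lower (8.57%). The differences between agents rest on few genes and were not tested. Mid1ip1, which promotes acetyl-CoA carboxylase activity, was lower after all 7 agents (-2.85 after IFNg to -1.29 after IL1b), as was Lpin1, a phosphatidate phosphatase (-2.56 after MALP2 to -1.40 after IL4). Acsl1, which activates long-chain fatty acids, was higher after IFNg (2.78), TNFa (2.38), MALP2 (2.39) and CpG (2.95) and lay at -0.24 to 0.89 after the other agents.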

How the data were processed

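Poly(A) RNA-seq of 8 libraries, 1 per group, was used. Per the submitters' processing notes, reads were handled with TopHat 1.3.1, Cufflinks 1.2.1 and Cuffdiff 1.2.1 on mm9; no source used here gives the options or whether strand was kept, and reads of overlapping or antisense genes cannot be separated. Per the file headers, the authors deposited FPKM values with lower and upper confidence bounds for each stimulated library and the untreated library in 7 tables, and in 7 others the q-value of the Cuffdiff comparison with a yes or no call; the highest q-value among called genes was 0.04999. Between 336 and 388 of 36806 genes per table had a status other than OK and were left out. FPKM as defined divides by a library total, so a few abundant transcripts can lower all other values. The untreated values differ by 1 factor per table, so the deposited values also hold a scaling within each table. How it was made is not given in the sources used here.

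Symbols were found for 31840 identifiers in GENCODE mouse release 21. Loci in mm9 are as deposited. Changes were computed within a table with a pseudocount of 1, which understates the change of low genes. The untreated values of the tables differ by 1 factor each (to within 9.3e-06), by which levels were put on the scale of the TNFa table; levels per library are on that scale, and bounds and folds on that of their own table. The counting rule was run on simulated data with set changes beyond 2-fold and little noise. That run checks the code and does not show how the rule performs on these libraries. The genes, the lists and the naming rule were chosen with earlier results of these data known. All 30 genes are accounted for; those that passed in at least 1 comparison are given in every library by arm, the others by range, and at most 3 genes are named per other list. Promoters came from RefSeq (GRCm38.p6). As alternatives, the pseudocount was set to 0.1, the floor to 5 FPKM or dropped, changes were centred on that of the median gene, the authors' call was required as well, and the other 6 stimulated libraries served as reference. Python 3.11.15, numpy 2.4.6, pandas 2.3.3 and matplotlib 3.10.9 were used.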

Additional observations from a re-analysis of the deposited data

Results flagged for a closer look

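Fads2, a desaturase of polyunsaturated fatty acids, moved in opposite directions under different agents, at a log2 change of 1.43 after TGFb1 over untreated and -1.18 after IFNg over untreated. Each value rests on 1 library and the untreated library that both share, and the difference between the agents was not tested.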

How the results depend on the processing

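No paired analysis was possible because each group held 1 library, and no library could be left out for the same reason. Of 119 recomputed counts and medians, 99 stayed within 1.5 times the count or 0.25 of the median (log2), 19 moved by more and 1 changed sign. With a pseudocount of 0.1 the genes higher came to 9 after TGFb1, 8 after IL1b, 5 after IL4 and 5 after MALP2, within that limit; the other counts were as reported, as were all counts with a floor of 5 FPKM or no floor. Centring on the median gene gave 4 genes higher after CpG, past the limit, and within it 6 higher after MALP2, 8 higher after TGFb1 and 11 lower after IFNg. When the authors' call was also required, the genes higher came to 0 after IFNg, 2 after IL4 and 1 after CpG, and those lower to 1 after IL4. With the other 6 stimulated libraries as the reference, the genes higher came to 0 after IL4, 0 after TNFa, 3 after TGFb1, 2 after IL1b, 0 after MALP2 and 0 after CpG, and those lower to 1 after IL4, 0 after TNFa, 0 after TGFb1, 0 after IL1b, 0 after MALP2 and 1 after CpG. The median was then -1.15 after IFNg, -0.45 after CpG and -0.21 after IL4, where the sign turned. A change that the agents share drops out by construction under this reference, so a lost count does not show whether it rests on the single untreated library. After IFNg 15 genes were lower, of which 8 were also lower over untreated, an overlap partly built in because both readings use the same IFNg library.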
